A study of Mus musculus with 6 samples.

Results

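Ribosome biogenesis and nucleotide synthesis genes were examined in 230-238 cells, a mouse B-cell line that had received a plasmid for green fluorescent protein (GFP) only or a plasmid for both GFP and FOG1, the GATA cofactor encoded by Zfpm1. The 35 genes were chosen by name, as listed genes of ribosomal RNA (rRNA) processing, RNA polymerase I, purine and pyrimidine synthesis and polyamine synthesis. Earlier results of these data were known at that choice, so the shares set against all genes below are descriptions only. Each gene was read from a probe set that the platform's annotation assigns to that gene alone, the brightest where several existed. Of the 35, 33 had such a probe set among 19937 genes named in this way. Ppan had only a probe set shared with another symbol, and Impdh2 was not analysed here. Of the 33 measured genes, all 33 had a mean signal above the median of all values, 7.0 log2 units.

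The 6 arrays comprised 3 of cells given GFP alone and 3 of cells given GFP and FOG1, all from the same line, cultured for 3 days in RPMI1640, sorted for GFP and cultured for another 4 days. The labels call the replicates biological, without saying whether they were infected separately, so the p-values measure the spread between these arrays. The promoter that drives the plasmid genes is not given in the sources used here. From each sample 100 ng of total RNA was amplified by a whole-transcript method, and the number of arrays limits the precision. Signals are log2 values as deposited, and a change is the mean of the FOG1 arrays minus the mean of the GFP-alone arrays.

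Ribosomes are built in the nucleolus, where RNA polymerase I transcribes the rRNA precursor and small nucleolar ribonucleoproteins (snoRNPs), processing factors and helicases modify, fold and cut it into the RNAs of the small and large subunits. That RNA needs a supply of purine and pyrimidine nucleotides, and polyamines stabilise it. The genes of these pathways are known targets of MYC and are highly expressed in dividing B-lineage cells.

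Across arrays, pairwise correlations lay between 0.9925 and 0.9960. The first principal component (36.8% of the variance) ran from -16.1 to -11.4 on GFP-alone arrays and put FOG1 replicate 1 at 1.16 and FOG1 replicates 2 and 3 at 17.0 and 24.3. Zfpm1 was at 9.41, 9.49 and 9.43 with GFP alone and at 10.21, 10.16 and 10.17 with FOG1, so every array went with its label. Of the B-cell markers listed, 10 of 11 were measured and none of them was below the median signal. Below it were 5 of 6 measured T-cell, 8 of 8 myeloid, 3 of 3 erythroid and 3 of 6 stromal markers. The mean signal over the B-cell markers ran from 11.86 to 11.90 with GFP alone and from 11.77 to 11.84 with FOG1. Cd79a (-0.41), Ms4a1 (-0.34) and Cd79b (-0.16) were lower with FOG1 without overlap, and Cd72 (0.15) was higher without overlap. The other log2 changes lay between -0.019 for Blnk and 0.043 for Ebf1, and the median of the 10 was -0.011. None of the 10 had a limma adjusted p under 0.05. The myeloid markers ran from 5.92 to 5.98 and from 5.86 to 5.93, overlapping narrowly. The T-cell markers (5.91 to 5.95 and 5.86 to 5.99), the erythroid markers (6.09 to 6.16 and 6.02 to 6.15) and the stromal markers (7.24 to 7.38 and 7.05 to 7.52) overlapped between the groups. The stromal markers not below the median signal were the collagen genes Col1a1, Col1a2 and Col3a1, and each fell from FOG1 replicate 1 to 3. Col1a1 was at 9.53, 9.73 and 9.70 with GFP alone and at 9.90, 9.61 and 8.99 with FOG1. Col1a2 was at 9.11, 9.38 and 9.25 against 9.55, 9.21 and 8.71. The part of these marker shifts, between groups or between arrays, in the results below was not tested. In bulk RNA a change in the share of cells and a change in RNA per cell cannot be told apart.

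None of the 33 measured genes differed between the groups past an adjusted p under 0.05 (limma with Benjamini-Hochberg over all 34760 probe sets), where 0.224% of all probe sets did. Without adjustment, 4 of the 33 had a p under 0.05, all with higher signal in the FOG1 cells, and these were Paics, Ppat, Rrp9 and Gart. Among all named genes 4.92% met that criterion in the same direction, and among those at or above the median signal 7.88% did. A positive log2 change was seen in 28 of the 33 genes (84.8%), against 45.8% of all named genes and 56.3% of those at or above the median signal. Under quantile normalization it was 27 of 33, against 49.1% of all named genes and 52.3% of those at or above the median signal. After centring each array on its median it was 31 of 33, against 56.9% and 66.6%. The median change of the 33 was 0.06 log2 units, or 1.04-fold, with a range from -0.04 for Wdr12 to 0.26 for Ppat. Over all named genes the median was -0.0099, and it depended on signal level. In the 5 brightest of 20 equal bins of genes, from a signal of 8.91 upward, it lay between 0.028 and 0.031. Most of the 33 lay at that level, where no background share was computed. The shares given here for genes at or above the median signal also cover dimmer genes, so they can understate the background for the 33. Groups did not overlap for 9 of the 33 genes, all higher with FOG1 (Fbl, Rrp9, Wdr43, Nop14, Polr1a, Paics, Ppat, Gart and Ctps), where the background was 10.2% of all named genes and 16.4% of those at or above the median signal. None of the 33 lay wholly lower with FOG1, against a background of 10.5% of all named genes and 975 of the 10582 at or above the median signal.

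The 95% intervals bound how large single changes could be. The highest upper limit was 1.36-fold for Ppat, and the lowest lower limit was 0.889-fold for Wdr12. Standard errors of the log2 changes ran from 0.041 for Paics to 0.11 for Dkc1.

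**Figure D1:**
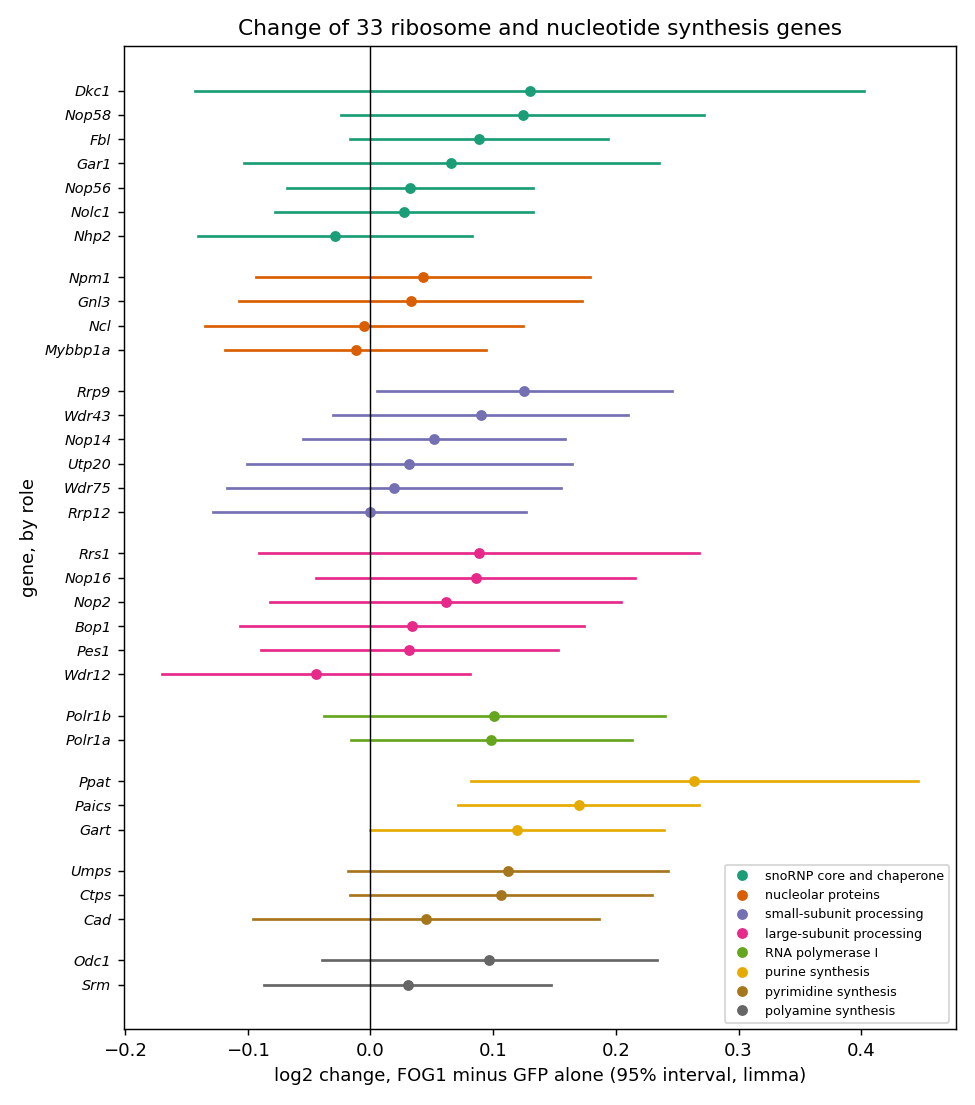
Log2 change (FOG1 minus GFP alone, horizontal axis) of the 33 measured genes, grouped and coloured by role, with 95% limma intervals from 3 arrays in each group. The 3 purine synthesis genes lie farthest to the right as a group, with a median of 0.17, and among the other genes the interval of Rrp9 alone excludes 0.

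The purine synthesis genes had the highest median change of all the roles, 0.17 over the 3 measured, which is the value of Paics. Ppat and Paics had the highest changes of the 33 genes, while Gart lay below Dkc1, Rrp9 and Nop58 of other roles. Ppat encodes the amidotransferase that commits phosphoribosyl pyrophosphate to purine synthesis. It was at 9.70, 9.88 and 9.76 log2 units with GFP alone and at 9.94, 10.03 and 10.16 with FOG1. Every FOG1 array lay above every GFP-alone array, by the narrowest margin between FOG1 replicate 1 and GFP-alone replicate 2. The change was 0.26 (SE 0.076), or 1.20-fold with a 95% interval of 1.06 to 1.36, and did not pass (limma adjusted p = 0.28). Paics encodes the bifunctional enzyme of later steps, which adds carbon dioxide and aspartate to the growing ring. Its signal was 12.52, 12.53 and 12.56 with GFP alone and 12.69, 12.71 and 12.71 with FOG1. The arrays of each group were close together and the groups well apart, with a change of 0.17 (SE 0.041), or 1.12-fold (interval 1.05 to 1.20; limma adjusted p = 0.23). Paics was the single member that any alternative fit called, at a limma adjusted p of 0.046 with a variance trend and robust estimation. Gart encodes the trifunctional enzyme between these steps. It was at 10.61, 10.70 and 10.61 against 10.71, 10.77 and 10.80, again without overlap, at a change of 0.12 (SE 0.050; limma adjusted p = 0.40). Leaving out each array in turn, the change ran from 0.21 to 0.32 for Ppat, from 0.16 to 0.18 for Paics and from 0.10 to 0.15 for Gart, and none of the 3 passed.

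**Figure D2:**
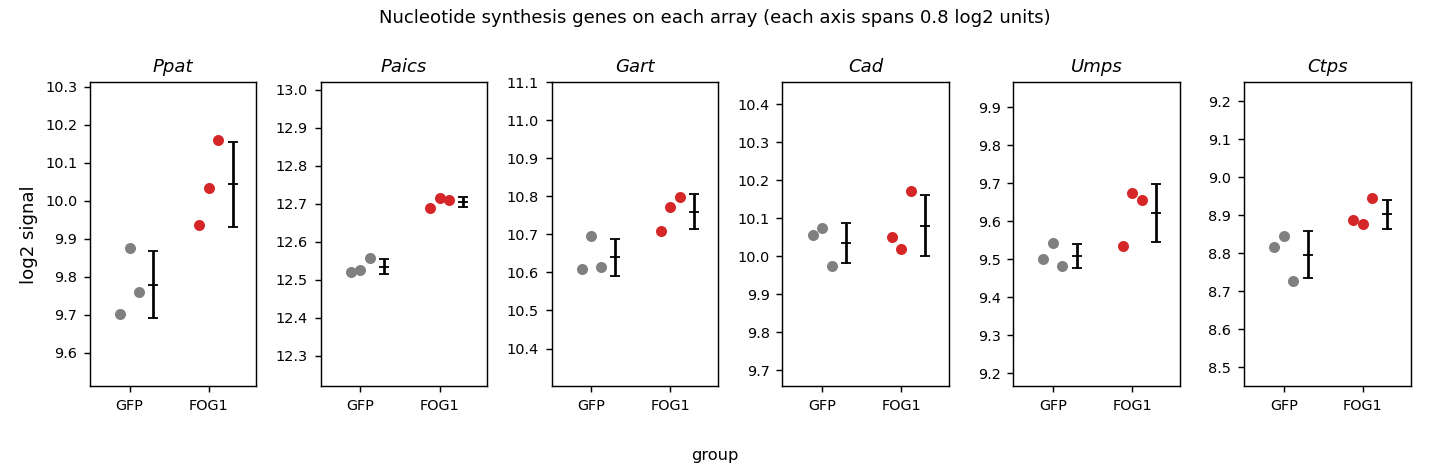
Log2 signal of the 6 measured nucleotide synthesis genes on each array (grey points GFP alone, red points FOG1, 3 arrays each, ordered by replicate number; bars show mean ± SD). The 2 groups do not overlap for Ppat, Paics, Gart and Ctps, and they overlap for Cad and Umps.

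Ppat and Paics are neighbours on chromosome 5, transcribed in opposite directions from start sites 276 bases apart. From these annotated sites each gene runs toward the other's start, so the 276 bases are not a space between the genes. Their promoter windows are shown because both genes belong to the same pathway and had the highest changes, followed by those of Rrp9 and Gart, the other members with an unadjusted p under 0.05. The windows are 300 bases each from RefSeq on GRCm38.p6, printed 5′ to 3′ on the gene's own strand. They are chr5:76951052-76951351 (plus strand) for Paics, chr5:76951529-76951828 (minus) for Ppat, chr9:106477059-106477358 (plus) for Rrp9 and chr16:91646923-91647222 (minus) for Gart. Capitals mark the E-box CACGTG, the core of the NRF1 motif GCGCATGC and the CCAAT box CCAAT, each searched on both strands.
Paics: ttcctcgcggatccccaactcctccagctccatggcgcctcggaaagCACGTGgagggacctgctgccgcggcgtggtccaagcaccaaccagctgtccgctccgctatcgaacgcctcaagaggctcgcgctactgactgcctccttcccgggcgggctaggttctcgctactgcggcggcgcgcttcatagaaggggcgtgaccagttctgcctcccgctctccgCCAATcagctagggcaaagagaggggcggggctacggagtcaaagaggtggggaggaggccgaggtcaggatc
Ppat: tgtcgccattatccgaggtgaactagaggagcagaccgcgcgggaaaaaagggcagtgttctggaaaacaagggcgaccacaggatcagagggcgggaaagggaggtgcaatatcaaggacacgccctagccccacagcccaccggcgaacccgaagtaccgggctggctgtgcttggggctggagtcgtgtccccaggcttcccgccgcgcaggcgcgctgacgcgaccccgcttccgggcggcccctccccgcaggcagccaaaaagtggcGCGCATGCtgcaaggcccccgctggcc
Rrp9: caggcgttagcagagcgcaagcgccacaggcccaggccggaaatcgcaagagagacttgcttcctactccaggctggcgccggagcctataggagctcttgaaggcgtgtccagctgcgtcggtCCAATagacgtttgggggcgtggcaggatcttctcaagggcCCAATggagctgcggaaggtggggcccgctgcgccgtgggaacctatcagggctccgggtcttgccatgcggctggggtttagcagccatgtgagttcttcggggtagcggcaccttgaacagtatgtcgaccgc
Gart: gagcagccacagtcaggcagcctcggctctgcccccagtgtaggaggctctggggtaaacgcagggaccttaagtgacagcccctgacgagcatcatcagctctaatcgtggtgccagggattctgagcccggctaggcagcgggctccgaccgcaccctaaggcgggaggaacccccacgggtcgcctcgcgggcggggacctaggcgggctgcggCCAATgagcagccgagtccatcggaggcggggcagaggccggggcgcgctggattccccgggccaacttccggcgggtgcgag

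In the Paics window the E-box began 203 bases before the start site and the CCAAT box 23 bases before it. The Ppat window held neither, and its NRF1 core began 23 bases after the start site. Rrp9 had CCAAT boxes 126 and 85 bases before the start and Gart had a CCAAT box 33 bases before it. The table held 32 windows of 29 of the 35 listed genes, and lacked Fbl, Npm1, Rrp12, Rrs1, Bop1 and Srm. The E-box, the known site of MYC and MAX, was in 7 of the 32 windows (21.9%) against 7.15% of 32851 windows of all genes. The genes with it were Paics, Impdh2, Wdr43, Utp20, Nop2, Pes1 and Mybbp1a, and those measured had log2 changes from -0.012 for Mybbp1a to 0.17 for Paics. The NRF1 core was in the windows of Ppat and Ctps (6.25% of the 32, against 2.71% of all). The CCAAT box was in 31.2% of the 32 and in 37.4% of all. These matches describe letters in the windows and not binding, and the searches other than the E-box were chosen after the sequences were read.

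The pyrimidine synthesis genes had a median of 0.11 over 3 genes, all positive. Ctps, which makes CTP from UTP, was at 8.82, 8.84 and 8.73 with GFP alone and at 8.89, 8.88 and 8.95 with FOG1. The groups did not overlap, but their nearest arrays were close, and the change was 0.11 (SE 0.051; limma adjusted p = 0.44). Umps, whose enzyme completes UMP, was at 9.50, 9.54 and 9.48 against 9.53, 9.67 and 9.66. FOG1 replicate 1 lay within the GFP-alone range and the other two FOG1 arrays above it, at a change of 0.11 (SE 0.054; limma adjusted p = 0.45). Cad, the enzyme of the opening steps of the pathway, had a log2 change of 0.045. The difference between the nucleotide synthesis genes (median 0.12 over 6) and the rRNA processing genes (median 0.034 over 23) was not tested.

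Both measured polyamine genes overlapped between the groups, with a median of 0.06 that was 0.04 without FOG1 replicate 3, 0.10 without FOG1 replicate 1 and 0.03 after quantile normalization. Odc1, the ornithine decarboxylase that opens polyamine synthesis, was at 10.19, 10.16 and 10.19 with GFP alone and at 10.18, 10.31 and 10.34 with FOG1. FOG1 replicate 1 was level with the controls, and the change was 0.097 (SE 0.057; limma adjusted p = 0.52). The other probe set of Odc1 did not overlap between the groups, at 0.16 (SE 0.051; limma adjusted p = 0.31). Srm, the spermidine synthase, was at 12.05, 12.10 and 11.99 against 12.05, 12.08 and 12.10, at a change of 0.03 (limma adjusted p = 0.81).

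RNA polymerase I was represented by the genes of its catalytic core subunits. Polr1a was at 9.28, 9.35 and 9.29 with GFP alone and at 9.37, 9.38 and 9.46 with FOG1, a change of 0.099 (SE 0.048; limma adjusted p = 0.45). Polr1b was at 10.40, 10.37 and 10.31 against 10.37, 10.50 and 10.52, a change of 0.10 (SE 0.058; limma adjusted p = 0.51). The groups stood apart narrowly for Polr1a, and for Polr1b FOG1 replicate 1 lay among the GFP-alone arrays.

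Of the 7 snoRNP genes, 6 had positive changes, with a median of 0.07. Leaving out GFP-alone replicate 1 brought that median to 0.023 and leaving out FOG1 replicate 3 to 0.031. It was 0.10 without GFP-alone replicate 2 and 0.04 under quantile normalization. Fbl encodes fibrillarin, which methylates rRNA at sites chosen by box C/D guide RNAs. It was at 10.32, 10.38 and 10.36 with GFP alone and at 10.42, 10.42 and 10.48 with FOG1, without overlap, a change of 0.089 (SE 0.044; limma adjusted p = 0.45). The other probe set of Fbl gave -0.024 with overlapping groups, so the probe sets of this gene differed in sign. Nop58, a scaffold of the same particles with Nop56, was at 9.85, 9.89 and 9.93 against 9.91, 10.05 and 10.09. FOG1 replicate 1 fell inside the GFP-alone range, and the change was 0.12 (SE 0.062; limma adjusted p = 0.46). Dkc1, the pseudouridine synthase of the H/ACA particles, had a change of 0.13 but the widest spread of the 33 genes, 9.91 ± 0.19 with GFP alone against 10.04 ± 0.14 with FOG1 (SD, n = 3 arrays each), with GFP-alone replicate 1 the lowest at 9.69. Its partners Gar1 and Nhp2 had changes of 0.066 and -0.029. Without GFP-alone replicate 1 the change was 0.023 for Dkc1 and 0.0037 for Gar1. Nop56 had 0.03 and Nolc1, a chaperone of snoRNPs, 0.03.

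The small-subunit factors had a median of 0.04 over 6 genes. Leaving out GFP-alone replicate 3 gave 0.024, as did quantile normalization, and leaving out FOG1 replicate 3 gave 0.026. The median was 0.06 when FOG1 replicate 1 was left out and 0.07 when GFP-alone replicate 2 was. Rrp9, the WD-repeat protein of the snoRNP that starts small-subunit processing, was at 9.21, 9.23 and 9.23 with GFP alone and at 9.32, 9.30 and 9.42 with FOG1. The GFP-alone arrays agreed closely and all FOG1 arrays lay above them, with a change of 0.13 (SE 0.050; limma adjusted p = 0.38). Wdr43, of the processome subcomplex that also acts in rRNA transcription, was at 10.36, 10.39 and 10.33 against 10.40, 10.43 and 10.52, a change of 0.09 (SE 0.050; limma adjusted p = 0.50). Wdr75 of the same subcomplex had 0.019, and the processome genes Nop14 and Utp20 had 0.05 and 0.03. Rrp12, a factor of subunit maturation and export, was at -0.0004.

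The large-subunit factors had a median of 0.05 over 6 measured genes, and none had separate groups. The median was 0.026 without GFP-alone replicate 3, 0.09 without GFP-alone replicate 2 and 0.022 after quantile normalization. Nop16 was at 10.41, 10.54 and 10.48 with GFP alone and at 10.51, 10.59 and 10.60 with FOG1, a change of 0.086 (SE 0.054; limma adjusted p = 0.54). Rrs1, which in yeast helps to bring the smallest rRNA into the large subunit, was at 7.37, 7.47 and 7.31 against 7.49, 7.57 and 7.35, a change of 0.088 (SE 0.075; limma adjusted p = 0.65). In both genes at least 1 FOG1 array lay within the GFP-alone range. The genes of the complex of Pes1, Bop1 and Wdr12, needed for large-subunit rRNA processing, had changes of both signs, each smaller than its SE. Pes1 and Bop1 had changes of 0.03 and 0.03. Wdr12 had the lowest change of the 33 genes, with 9.25, 9.15 and 9.25 with GFP alone and 9.11, 9.20 and 9.20 with FOG1 (change -0.04, SE 0.052; limma adjusted p = 0.75). Its groups overlapped, and its other probe set gave -0.06. Nop2, a methyltransferase of large-subunit rRNA, had 0.06.

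The abundant nucleolar proteins had a median of 0.014 over 4 genes, of which 2 were positive, and the sign of this median turned with single arrays and with scaling. Leaving out GFP-alone replicate 1 gave -0.014, leaving out FOG1 replicate 2 gave -0.0078, and quantile normalization gave -0.0045. The median was 0.03 when GFP-alone replicate 3 was left out and 0.05 when FOG1 replicate 1 was. Npm1, nucleophosmin, which forms the outer layer of the nucleolus, was at 11.50, 11.43 and 11.54 with GFP alone and at 11.47, 11.61 and 11.52 with FOG1, a change of 0.04 (SE 0.057; limma adjusted p = 0.77). Gnl3, nucleostemin, was at 10.01, 10.12 and 10.12 against 10.04, 10.18 and 10.13, a change of 0.03 (SE 0.058; limma adjusted p = 0.83). The arrays of both genes were intermixed. Ncl, nucleolin, had -0.0054, with an interval of 0.911-fold to 1.09-fold, and Mybbp1a, a nucleolar protein that binds MYB, had -0.012.

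**Figure D3:**
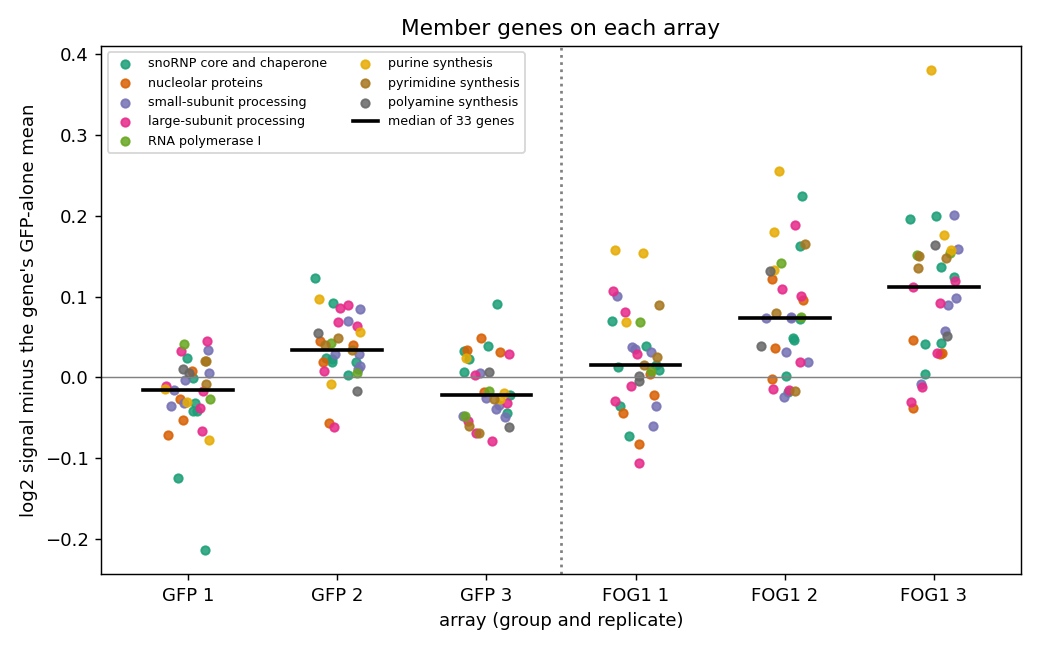
Log2 signal of each of the 33 genes on each array (horizontal axis, group and replicate) minus that gene's GFP-alone mean, coloured by role, with black lines at the median of the 33. FOG1 replicates 2 and 3 have the highest medians, 0.07 and 0.11, and FOG1 replicate 1 (0.015) lies below GFP-alone replicate 2 (0.03).

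The arrays of a group were not alike across these genes. Measured from each gene's GFP-alone mean, the median over the 33 genes was -0.016, 0.03 and -0.022 on GFP-alone replicates 1, 2 and 3 and 0.015, 0.07 and 0.11 on FOG1 replicates 1, 2 and 3. FOG1 replicate 3 was the highest array for 18 of the 33 genes, FOG1 replicate 2 for 9 and FOG1 replicate 1 for 1. GFP-alone replicates 1 and 3 were each the lowest for 13 of the 33. Among the 10582 named genes at or above the median signal, FOG1 replicates 3, 2 and 1 were the highest for 3202, 1445 and 1455. GFP-alone replicates 1 and 3 were the lowest for 2491 and 2550 of these, so part of this pattern was shared with other genes. The median of the purine genes was 0.15 on FOG1 replicate 1, 0.18 on replicate 2 and 0.18 on replicate 3, on each array the value of Paics. Ppat and Gart both rose from FOG1 replicate 1 to 3. Over all named genes the medians on the 6 arrays lay between -0.026 and 0.021. For those at or above the median signal they were -0.010, 0.024 and -0.012 on GFP-alone replicates 1, 2 and 3. On FOG1 replicates 1, 2 and 3 the medians of the same genes were 0.013, 0.0064 and 0.029. The median change of the 33 was 0.04 without FOG1 replicate 3 and 0.09 without GFP-alone replicate 2, and 0.04 after quantile normalization. From FOG1 replicate 1 to 3 the median of the 33 rose, while the collagen genes Col1a1, Col1a2 and Col3a1 fell. Whether these orders are linked was not tested.

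**Figure D4:**
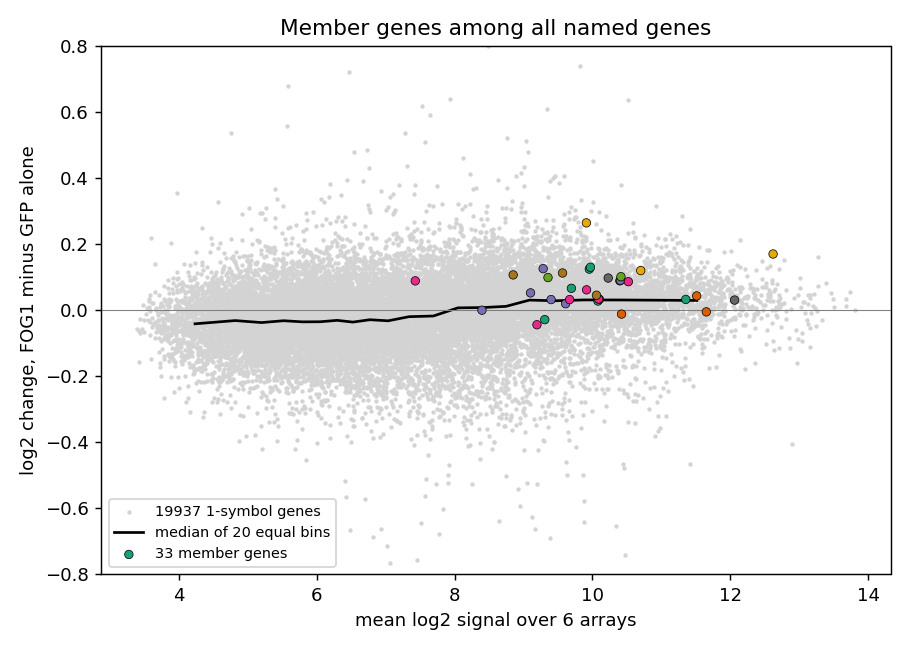
Log2 change (FOG1 minus GFP alone) against mean log2 signal over the 6 arrays, for 19937 named genes (grey) and the 33 measured genes (coloured by role), with the median of 20 equal bins of genes as a black line; 15 genes lie outside the plotted limits of ±0.8. The black line runs from -0.04 at the dimmest bin to about 0.03 at the brightest, and the measured genes lie among the brighter ones.

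The wider pathways were read from 7 further lists holding 173 other genes, of which 164 were measured. These lists, too, were chosen with earlier results of these data known. None passed over all probe sets (limma), while 22 had an unadjusted p under 0.05 with higher and 2 with lower signal in the FOG1 cells. The background of that criterion was 4.92% higher and 6.11% lower among all named genes, and 7.88% and 5.44% among those at or above the median signal. In all, 129 of the 164 had positive changes (78.7%, against 45.8% of all named genes and 56.3% of those at or above the median signal). Their median was 0.07, and no background share was computed at their own signal level. Small-subunit genes had a median of 0.08, with 38 of 42 positive, and large-subunit genes 0.07, with 41 of 47 positive. Imp3 and Imp4, partners in the same complex of the processome, had opposite signs. Imp3 was at 10.54 ± 0.009 with GFP alone and 10.71 ± 0.05 with FOG1, and Imp4 at 11.18 ± 0.06 and 10.96 ± 0.02 (SD, n = 3 arrays each; limma adjusted p = 0.26 and 0.20). The strongest large-subunit genes by p were Rsl24d1 at 0.23 and the GTPase gene Gtpbp4 at 0.17. The snoRNP assembly list had a median of 0.08, with 11 of 13 positive, led by the genes of the ATPases Ruvbl1 at 0.14 and Ruvbl2 at 0.13. Other RNA polymerase I genes had a median of 0.03, with 11 of 20 positive, and the subunit genes Znrd1 at 0.23 and Twistnb at 0.16 had the smallest p.

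Among other purine genes 10 of 18 were positive, with a median of 0.015, so the changes of Ppat, Paics and Gart were above those of most genes of that list. Its smallest p values belonged to Adss, for the committed step to AMP, at 0.17 and Gmps, which makes GMP, at 0.14. Other pyrimidine genes had a median of 0.07 with 12 of 15 positive. The largest of these changes was that of Dctd, a deaminase of dCMP, from 9.60 ± 0.02 to 9.87 ± 0.09 (SD, n = 3 arrays each; 0.28, limma adjusted p = 0.18), and the deoxycytidine kinase gene Dck had 0.16. Other polyamine genes had a median of 0.04 over 9, with Azin1, which protects ornithine decarboxylase from antizyme, at 0.14 and Mtap at 0.10.

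Myc itself was at 10.72 ± 0.07 with GFP alone and 10.69 ± 0.09 with FOG1 (SD, n = 3 arrays each), a change of -0.029 (SE 0.063; limma adjusted p = 0.87), within the spread of the arrays. The MYC network list had a median of 0.04 over 11 genes, and 0 had a limma p under 0.05 with or without adjustment. Its smallest p values belonged to Mxd1, an antagonist of MYC, at -0.13 (SE 0.056; limma adjusted p = 0.40) and Mycl at 0.07. Cytosolic ribosomal protein genes, the protein side of the ribosome, had a median of 0.014 with 32 of 55 measured genes positive. None of them passed, and without adjustment 4 of the 55 had a limma p under 0.05 with higher and 2 with lower signal, shares near the 7.88% and 5.44% of all named genes at or above the median signal. The positive share was 58.2%, also near the 56.3% of those genes. Most of the ribosomal protein genes lay in the brightest of the 20 bins of genes, from a signal of 10.81 upward. The median change of that bin was 0.029, above their 0.014. Rps15a had 0.24 and Rps13 -0.16, and such genes are uncertain because probes can be shared with their many processed pseudogenes. For Rps13 the mean over its probe sets had the opposite sign, at 0.16.

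**Figure D5:**
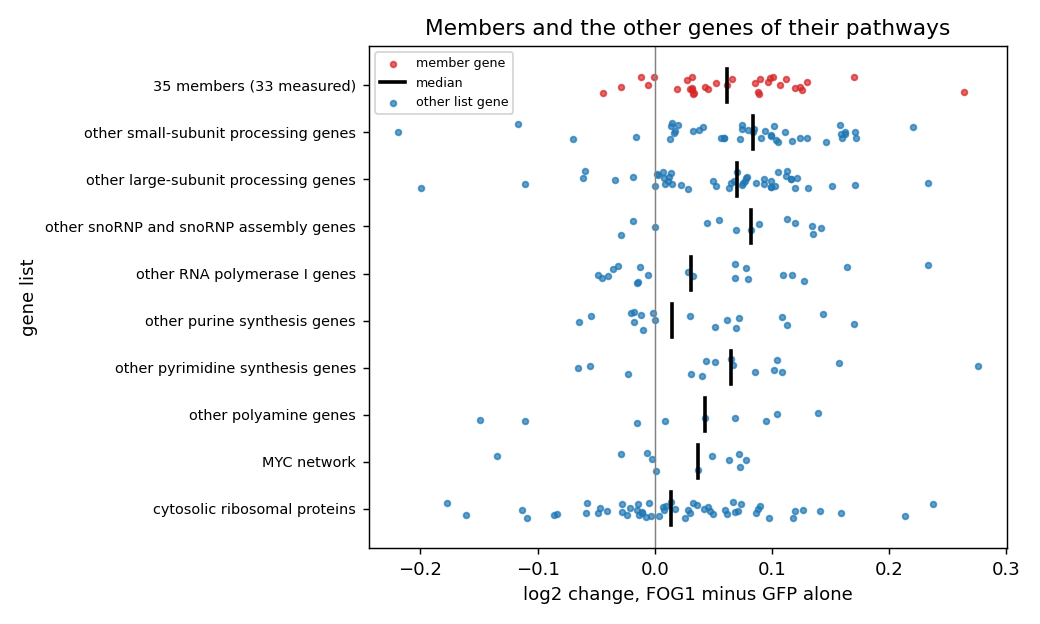
Log2 change (FOG1 minus GFP alone, horizontal axis) of each measured gene, for the 33 measured members (red) and each list of other pathway genes (blue), with medians as black lines. The medians run from 0.014 for the cytosolic ribosomal proteins to 0.08 for the other small-subunit genes, and no gene shown passed the threshold.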

How the data were processed

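Mouse RNA was measured on 6 arrays. The deposited values are log2 signals for 34760 probe sets, made with the affy package (no version) per the submitters' processing notes. The unit was read from the values (3.12 to 14.07), and how background was corrected and arrays normalized is not given in the sources used here. Genes were named from the platform's annotation, in which 21640 probe sets had 1 symbol, 1321 several and 11799 none. If the arrays were equalized, a shift of most genes together would not be seen. No detection call was used.

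Groups came from the sample titles. All probe sets were fitted by lmFit and eBayes without a block (limma 3.58.1, R 4.3.3), with Benjamini-Hochberg adjustment and a threshold of 0.05. The fit was tested on simulated data whose planted changes were all larger than any change of the 33 genes. That test therefore does not show how well changes of their size are found. Figures used matplotlib 3.10.9 in Python 3.11.15. Values on every array are given for the 2 members of each role with the smallest p, Ppat, Paics and the extremes, and for Gart and Zfpm1. Gart was added after its values were seen. For each pathway list up to 2 genes by p are named, with a change or group means. The members and lists were chosen with earlier results of these data known. Alternatives were 2 scalings, a filter on dim probe sets, testing 1-symbol probe sets alone, a variance trend, array weights, a replicate block, averaging the probe sets of a gene, and leaving out each array.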

Additional observations from a re-analysis of the deposited data

How the results depend on the processing

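The count of 78 probe sets past the threshold ranged from 17 to 38 when 1 array was left out and was 9 with the replicate block; fewer samples or residual degrees of freedom enter these fits. The replicate numbers gave no pairing: deviations of arrays with the same number correlated at -0.068, 0.008 and -0.04, and 0 of 6 arrays had its number partner as its best match. With the replicate block 0 members were called and Zfpm1 had a limma adjusted p of 0.097. In the main fit the change of Zfpm1 was 0.74 (limma adjusted p = 0.0038), and without 1 array its limma adjusted p ran from 0.028 to 0.043. The count of members called was 0 under every alternative except the variance trend with robust estimation, where it was 1 (Paics); the cause was not tested. Positive members numbered 26 to 31 and the member median was 0.036 to 0.089 over the fits without 1 array, and 0.037 and 0.087 after quantile normalization and median centring.

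Of the 33 members, 25 kept their sign in all 14 alternatives. The other 8 were close to 0. Without 1 array, Ncl ran from -0.032 to 0.0329, Mybbp1a from -0.0252 to 0.0102, Rrp12 from -0.0248 to 0.0417, Wdr75 from -0.0202 to 0.0586, Gnl3 from -0.0028 to 0.0712, Bop1 from -0.0008 to 0.0767, Srm from -0.0001 to 0.0578 and Cad from -0.0003 to 0.0757. Myc ran from -0.0771 to 0.0088. After median centring Ncl was 0.0201, Mybbp1a 0.0135 and Rrp12 0.0252, and after quantile normalization Wdr75 was -0.0014. Rps13 was 0.1561 as the mean over its probe sets. A pseudocount does not apply to log2 values.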
